A study of Mus musculus with 21 samples.

Results

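The genes described here are 10 components of the Polycomb repressive complexes, Ezh1, Ezh2, Eed, Suz12, Jarid2, Mtf2, Rnf2, Ring1, Pcgf6 and Kdm2b. They were taken by symbol from a deposited table of 20900 genes, and all 10 were among the 14666 genes that passed the filter on low values. Poly(A) RNA was sequenced from E14, a mouse embryonic stem cell line of the 129 strain kept in serum with leukaemia inhibitory factor. The cells were plated the day before and given medium with an inhibitor of RNA polymerase I, either BMH-21 or CX-5461 at 1 µM, for 2, 4 or 8 h. With the untreated cells of 0 h this gave 7 groups of 3 libraries, 21 in all. The 0 h libraries were the control for both inhibitors, so every comparison with control shared the same 3 libraries, and no vehicle control of matching time was among the samples used here. All groups were the same line with no genetic change named. The labels number the replicates but do not say whether they were separate cultures, so the p-values measure the spread between these libraries, which may be technical.

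Polycomb proteins keep developmental genes silent, and work in 2 families of complexes. Polycomb repressive complex 2 (PRC2) methylates a lysine of histone H3 through its catalytic subunit Ezh1 or Ezh2, which needs Eed and Suz12 for activity, while accessory subunits such as Jarid2 and Mtf2 bring the complex to its targets. Polycomb repressive complex 1 (PRC1) ubiquitinates histone H2A through Rnf2 (also called Ring1b) or Ring1. Pcgf6 and Kdm2b belong to variant forms of PRC1, in which Kdm2b binds unmethylated CpG islands. In mouse embryonic stem cells these complexes cover the promoters of lineage regulators that are poised but silent.

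Whole reads recovered from the deposited values gave 46604397 to 62812641 reads per library, and a gene with 3 reads had a log2 value of -4.63 to -3.59, depending on the library. The deposited log2 values carried a factor per library whose origin is not stated, and the median tested gene of a group lay -0.21 (BMH-21 at 8 h) to 0.22 (CX-5461 at 8 h) from the control on that scale. Levels are therefore given relative to the median tested gene of the same library, in log2 units, and are called relative levels below, unless the deposited scale is named. All 10 markers of embryonic stem cells that were examined, among them Pou5f1, Sox2 and Nanog, were above the median gene in all 7 groups. Their summed relative level was 8.39 to 8.42 in control libraries and at 8 h was 7.29 to 7.48 (BMH-21) and 7.90 to 7.93 (CX-5461) in treated ones. The summed relative level of 6 trophoblast markers was 2.11 to 2.14 in control libraries and at 8 h was 3.31 to 3.37 (BMH-21) and 2.68 to 2.81 (CX-5461) in treated ones. Of these 6, 1 was above the median gene in control and 2 at 8 h of either inhibitor. Tfap2c had a mean of 1.76 in control, 2.65 at 8 h of BMH-21 and 2.19 at 8 h of CX-5461. For Krt7 these means were -3.46, 1.43 and -0.17, and for Krt8 they were -0.44, -0.52 and 0.01. Whether these marker changes have a part in the results below was not tested. In bulk libraries, fewer cells of a type and less RNA per cell cannot be told apart.

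The sequences next to the start sites are shown for 5 of the genes, the paralog pairs Ezh1 and Ezh2 and Rnf2 and Ring1, whose members moved unequally, and Suz12, whose group means were the most like those of Ezh1 among the 10 genes. They come from RefSeq on the mouse build GRCm38.p6, which has the coordinates of mm10, and run 5′ to 3′ on the strand of the gene. Windows of 250 bases before the start are given, except for Ezh2, where 125 bases that lie in no annotated exon are given. Capitals mark the GC box (GGGCGG), the CCAAT box (CCAAT) and an E2F motif (TTTCCCGC or TTTGGCGC), each searched on both strands.
Ezh1, chr11:101226464-101226713, minus strand: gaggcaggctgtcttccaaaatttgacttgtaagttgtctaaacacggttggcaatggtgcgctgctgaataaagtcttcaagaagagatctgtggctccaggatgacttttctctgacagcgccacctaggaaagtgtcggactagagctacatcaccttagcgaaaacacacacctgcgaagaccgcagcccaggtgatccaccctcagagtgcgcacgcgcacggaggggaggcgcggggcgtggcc
Ezh2, chr6:47595059-47595183, minus strand: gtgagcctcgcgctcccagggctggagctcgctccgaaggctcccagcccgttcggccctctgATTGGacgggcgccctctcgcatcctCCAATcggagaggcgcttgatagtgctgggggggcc
Suz12, chr11:79992856-79993105, plus strand: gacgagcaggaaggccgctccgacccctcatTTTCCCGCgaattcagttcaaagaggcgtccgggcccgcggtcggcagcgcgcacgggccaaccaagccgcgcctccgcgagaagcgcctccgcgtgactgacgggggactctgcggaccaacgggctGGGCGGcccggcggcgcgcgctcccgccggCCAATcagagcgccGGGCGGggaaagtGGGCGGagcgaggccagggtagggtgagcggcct
Rnf2, chr1:151500992-151501241, minus strand: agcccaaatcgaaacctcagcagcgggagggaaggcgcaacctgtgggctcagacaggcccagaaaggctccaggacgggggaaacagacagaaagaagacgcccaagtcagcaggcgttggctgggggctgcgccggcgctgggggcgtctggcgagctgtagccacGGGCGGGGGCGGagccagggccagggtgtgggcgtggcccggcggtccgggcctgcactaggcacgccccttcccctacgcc
Ring1, chr17:34024681-34024930, minus strand: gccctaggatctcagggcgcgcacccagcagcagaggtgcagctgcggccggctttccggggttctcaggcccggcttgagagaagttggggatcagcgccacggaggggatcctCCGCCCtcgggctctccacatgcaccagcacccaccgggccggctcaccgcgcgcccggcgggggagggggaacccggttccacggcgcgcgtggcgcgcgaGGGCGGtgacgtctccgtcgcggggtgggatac
In the printed stretches Ezh1 held none of these motifs, Ezh2 held 2 CCAAT boxes, and Rnf2 and Ring1 held 2 GC boxes each. Suz12 held 3 GC boxes, 1 CCAAT box and 1 E2F motif, the last starting 219 bases before the start, and no motif overlapped another. Among 32851 mouse promoter windows of 250 bases, 32.7% held a GC box, 33.8% a CCAAT box and 1.3% an E2F motif. A median window held 6 CpG dinucleotides, against 14 in that of Ezh1, 37 in that of Suz12, 20 in that of Rnf2 and 30 in that of Ring1. These matches describe the letters of the windows and are not evidence of binding.

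Relative to the median gene, 9 of the 10 genes had fallen after 4 and 8 h of either inhibitor, and Ring1 was the gene that had not passed the test in any of the 6 comparisons with control. At 2 h most changes were small. The largest falls at 8 h were those of Jarid2, to 0.342 of control, Pcgf6, to 0.431, Suz12, to 0.463, and Ezh2, to 0.492 of control, all with BMH-21. The changes were tested with limma over all 7 groups, with Benjamini-Hochberg adjustment over 14666 genes at a threshold of 0.05.

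With BMH-21, 1 of the 10 genes was called higher and 4 lower at 2 h, where 18.6% of all tested genes were called higher and 17.5% lower. At 4 h 0 were called higher and 9 lower, against 32.2% and 41.5% of all tested genes. At 8 h 0 were called higher and 9 lower, against 33.3% and 51.3%. The median change of the 10 genes was -0.09, -0.56 and -0.84 (log2) at 2, 4 and 8 h, beside medians of 0, -0.06 and -0.19 over all tested genes.

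With CX-5461, 0 were called higher and 4 lower at 2 h, beside 15.8% and 17.8% of all tested genes. At 4 h 0 were called higher and 9 lower, beside 28.5% and 45.7%, and at 8 h again 0 and 9, beside 29.3% and 44.7%. The median change was -0.10, -0.58 and -0.47 at 2, 4 and 8 h, beside -0.03, -0.12 and -0.11 over all tested genes. The lower calls made up a larger share of the 10 genes than of all tested genes at 4 and 8 h. They were made among many changed genes. The 10 were chosen by function but with earlier results of these data known, and the list was not tested.

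The count after 8 h of CX-5461 depended on the scaling. On the deposited scale, on which the median gene lay 0.22 above control, 1 of the 10 genes was called higher (Ring1) and 5 lower, while 35.1% of all tested genes were called higher and 14.3% lower. With median-ratio factors computed from the reads, 0 were called higher and 7 lower, beside 35.2% and 35.3% of all tested genes. At 2 h of BMH-21 on the deposited scale, 0 were called higher and 2 lower, beside 8.48% and 11.2%.

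**Figure D1:**
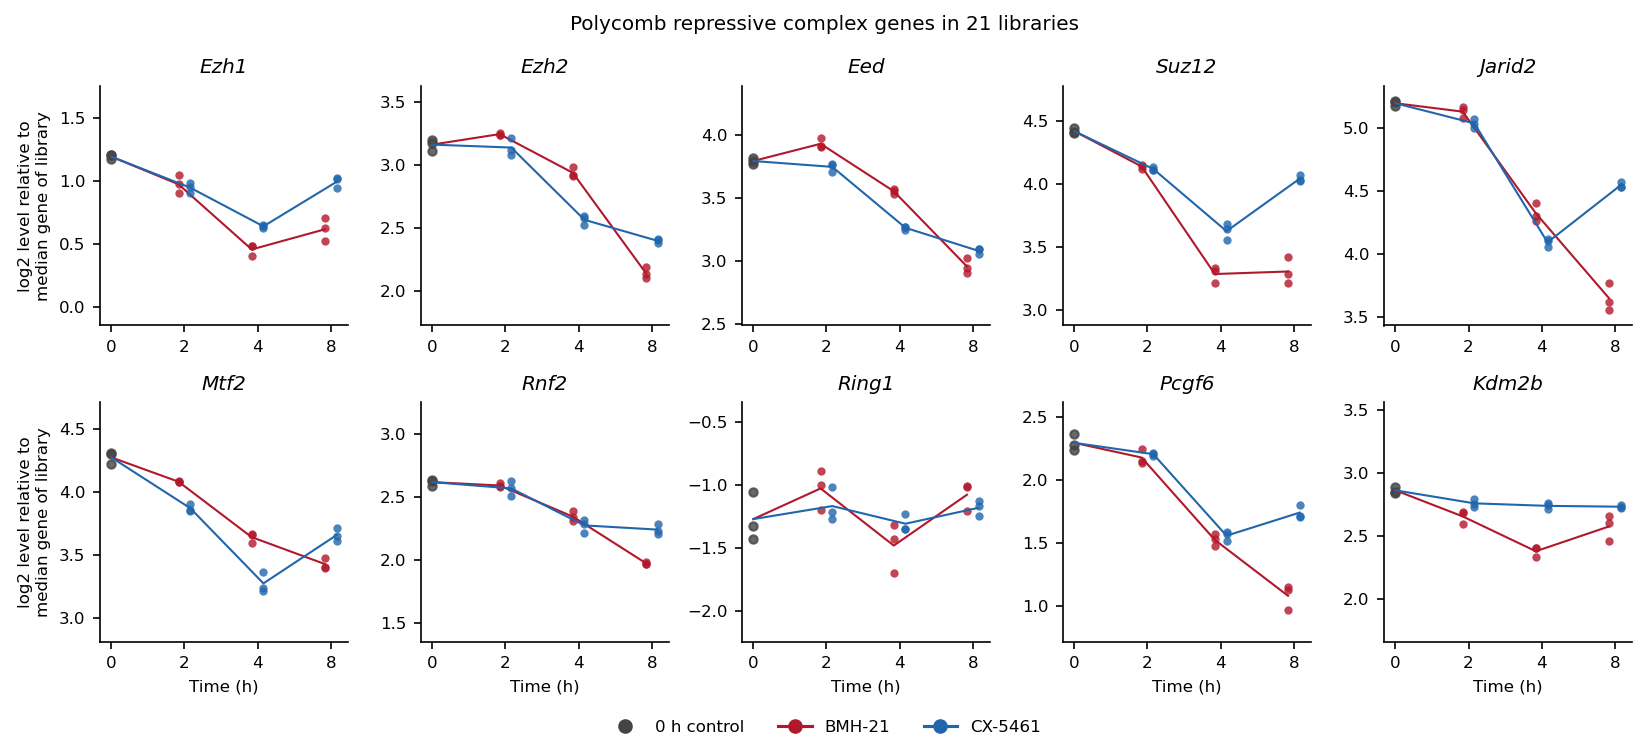
Log2 level of each of the 10 genes relative to the median tested gene of the library (vertical axis, the same length in every panel) at 0, 2, 4 and 8 h (horizontal axis, evenly spaced and not to scale). Points are the 21 libraries and lines join group means. Jarid2 falls from 5.19 in control to 3.65 after 8 h of BMH-21, while Ring1 stays between group means of -1.49 and -1.03.

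**Figure D2:**
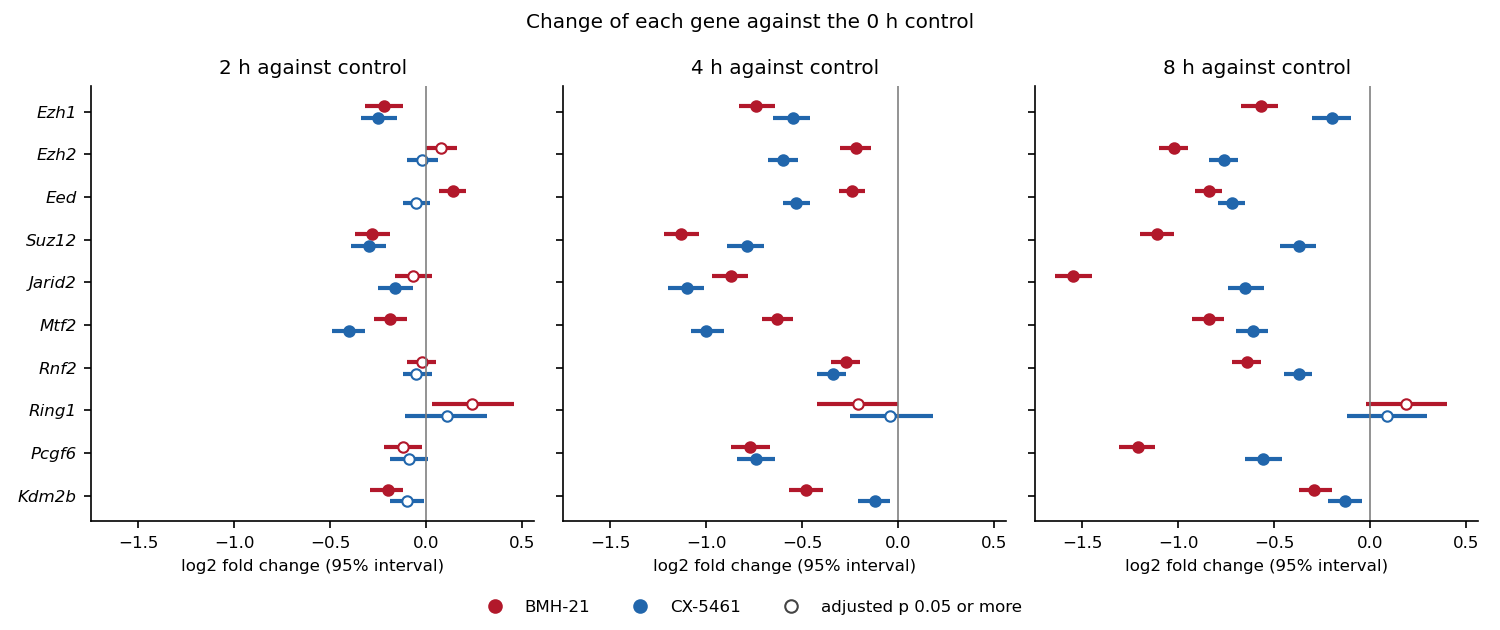
Log2 fold change of each gene against the 0 h control at 2, 4 and 8 h, with 95% intervals from limma. Filled points passed an adjusted p of 0.05 and open points did not; 9 genes are filled at 4 and 8 h for both inhibitors.

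Gene positions below are those of GENCODE M21 on GRCm38, the build of mm10. Ezh2 (ENSMUSG00000029687.16, chr6:47530139-47595341, minus strand) is the main histone methyltransferase of PRC2 in dividing cells. The relative level of Ezh2 was 3.17, 3.20 and 3.11 in the control libraries. The BMH-21 libraries of Ezh2 were at 3.24, 3.24 and 3.25 at 2 h, 2.98, 2.92 and 2.91 at 4 h, and 2.13, 2.19 and 2.1 at 8 h. The CX-5461 libraries of Ezh2 were at 3.12, 3.08 and 3.21 at 2 h, 2.52, 2.59 and 2.58 at 4 h, and 2.41, 2.40 and 2.38 at 8 h. The groups of 4 and 8 h lay below every control library with either inhibitor, and those of 2 h did not. The BMH-21 libraries of 2 h were all above control, by 0.08, without passing the test. Ezh2 fell by 0.22 (SE 0.04, limma adjusted p = 1.4e-05) at 4 h and by 1.02 (SE 0.04, adjusted p = 1.7e-17) at 8 h of BMH-21. With CX-5461 it fell by 0.60 (adjusted p = 1.2e-12) at 4 h and by 0.76 (adjusted p = 2.1e-14) at 8 h. The change at 4 h of BMH-21 was -0.37 on the deposited scale.

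Ezh1 (ENSMUSG00000006920.14, chr11:101191115-101226463, minus strand) encodes the paralogous methyltransferase, which prevails in cells that no longer divide. Relative levels of Ezh1 were 1.17, 1.20 and 1.20 in the control libraries. Those of BMH-21 had 0.90, 0.97 and 1.04 at 2 h, 0.48, 0.48 and 0.40 at 4 h, and 0.70, 0.52 and 0.62 at 8 h. CX-5461 gave 0.90, 0.98 and 0.95 at 2 h, 0.65, 0.62 and 0.64 at 4 h, and 0.94, 1.02 and 1.01 at 8 h. All treated libraries were below the 3 control libraries, and the lowest group was that of 4 h for each inhibitor. Ezh1 fell already at 2 h, by 0.22 with BMH-21 (limma adjusted p = 5.8e-04) and by 0.25 with CX-5461 (adjusted p = 1.9e-04). It fell by 0.74 (adjusted p = 9.1e-13) and 0.57 (adjusted p = 5.2e-11) at 4 and 8 h of BMH-21, and by 0.55 (adjusted p = 2.1e-10) and 0.20 (adjusted p = 5.3e-04) at 4 and 8 h of CX-5461. The last of these was 0.02 on the deposited scale (adjusted p = 0.92) and -0.10 with median-ratio factors (adjusted p = 0.066), neither of which passed the test. At 2 h of CX-5461 the change on the deposited scale was -0.39.

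The ratio of the 2 methyltransferase genes does not depend on the scaling of a library, since both are read in the same library. The log2 ratio of Ezh1 to Ezh2 was -1.97 ± 0.05 (SD, n = 3) in control, -2.27 ± 0.06, -2.48 ± 0.04 and -1.52 ± 0.13 at 2, 4 and 8 h of BMH-21, and -2.19 ± 0.08, -1.92 ± 0.05 and -1.41 ± 0.06 at 2, 4 and 8 h of CX-5461. The ratio thus first moved toward Ezh2, to 0.701 of its control value at 4 h of BMH-21, and then toward Ezh1, to 1.37 times control with BMH-21 and 1.48 times control with CX-5461 at 8 h. The 7 groups differed (F = 88.3, permutation test, p = 1.0e-05, the smallest that 100000 resamples can give, and 2.0e-05 adjusted over the 2 ratios tested). For each treated group against control the exact two-sided permutation test of 3 against 3 libraries cannot go below p = 0.1; it gave 0.1 in 5 of the 6 groups and 0.3 at 4 h of CX-5461.

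Eed (ENSMUSG00000030619.9, chr7:89954654-89980983, minus strand) reads the methyl mark and stimulates the methyltransferase. Eed had relative levels of 3.77 to 3.81 in control libraries, 3.90 to 3.97, 3.53 to 3.57 and 2.90 to 3.02 at 2, 4 and 8 h of BMH-21, and 3.70 to 3.77, 3.24 to 3.27 and 3.05 to 3.09 at 2, 4 and 8 h of CX-5461. It was the only one of the 10 genes called higher in a comparison with control on the centred scale, by 0.14 at 2 h of BMH-21 (limma adjusted p = 0.0029), which was 0.06 and did not pass the test on the deposited scale. Eed fell by 0.24 (adjusted p = 7.9e-07) and 0.84 (adjusted p = 7.9e-17) at 4 and 8 h of BMH-21, and by 0.53 (adjusted p = 1.3e-12) and 0.72 (adjusted p = 8.6e-15) at 4 and 8 h of CX-5461. The deposited scale gave -0.39 at 4 h of BMH-21. Exons of Ezh2 and Suz12 share 174 and 178 bases with long noncoding genes on the opposite strand that were not analysed here. Exons of Eed share 261 bases with E230029C05Rik on the opposite strand, and whether the counting used strand is not stated.

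Suz12 (ENSMUSG00000017548.15, chr11:79993106-80034123, plus strand) holds the core of PRC2 together. The relative level of Suz12 was 4.40, 4.44 and 4.41 in the control libraries. Under BMH-21 its levels were 4.12, 4.14 and 4.15 at 2 h, 3.31, 3.33 and 3.21 at 4 h, and 3.42, 3.21 and 3.28 at 8 h. Suz12 with CX-5461 was at 4.13, 4.11 and 4.11 at 2 h, 3.55, 3.68 and 3.64 at 4 h, and 4.07, 4.02 and 4.03 at 8 h. No treated library reached the control levels, and the 8 h libraries of CX-5461 lay above its 4 h libraries. Suz12 fell by 0.28 (limma adjusted p = 2.2e-05), 1.13 (adjusted p = 8.1e-17) and 1.11 (adjusted p = 5.6e-17) at 2, 4 and 8 h of BMH-21. It fell by 0.30 (adjusted p = 9.5e-06), 0.79 (adjusted p = 9.1e-14) and 0.37 (adjusted p = 7.1e-08) at 2, 4 and 8 h of CX-5461. The last change was -0.16 on the deposited scale and did not pass the test there (adjusted p = 0.21).

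Jarid2 (ENSMUSG00000038518.15, chr13:44729474-44921643, plus strand) binds PRC2 and nucleosomes and had the widest range of the 10 genes. Jarid2 had relative levels of 5.17, 5.20 and 5.21 in the control libraries. BMH-21 libraries had 5.08, 5.14 and 5.16 at 2 h, 4.30, 4.40 and 4.26 at 4 h, and 3.77, 3.55 and 3.62 at 8 h. In the CX-5461 libraries Jarid2 was at 5.03, 5.07 and 5.00 at 2 h, 4.05, 4.12 and 4.10 at 4 h, and 4.57, 4.53 and 4.53 at 8 h. With BMH-21 the libraries were lower at 8 h than at 4 h, and with CX-5461 they were higher at 8 h than at 4 h. Jarid2 fell by 0.87 (limma adjusted p = 2.0e-14) and 1.55 (SE 0.05, adjusted p = 1.6e-19) at 4 and 8 h of BMH-21, and by 0.16 (adjusted p = 0.0079), 1.10 (adjusted p = 2.7e-16) and 0.65 (adjusted p = 8.8e-12) at 2, 4 and 8 h of CX-5461. The change at 2 h of BMH-21, -0.07, did not pass the test (adjusted p = 0.28). The changes at 2 and 8 h of CX-5461 were -0.31 and -0.43 on the deposited scale.

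Mtf2 (ENSMUSG00000029267.17, chr5:108065674-108109004, plus strand) encodes a Polycomb-like protein that binds CpG islands and recruits PRC2. Mtf2 had relative levels of 4.22 to 4.31 in control, 4.08 to 4.09, 3.60 to 3.67 and 3.40 to 3.48 at 2, 4 and 8 h of BMH-21, and 3.85 to 3.91, 3.22 to 3.37 and 3.61 to 3.72 at 2, 4 and 8 h of CX-5461. All treated libraries were below the control libraries. Mtf2 fell by 0.19 (limma adjusted p = 7.4e-04), 0.63 (adjusted p = 1.5e-12) and 0.84 (adjusted p = 2.8e-15) with BMH-21, and by 0.40 (adjusted p = 3.1e-08), 1.00 (adjusted p = 2.9e-16) and 0.61 (adjusted p = 4.1e-12) with CX-5461. Without centring, the change at 2 h of BMH-21 was -0.27 and did not pass the test, and that at 8 h of CX-5461 was -0.40. Exons of Mtf2 share 395 bases with Tmed5, a gene on the opposite strand with a median deposited log2 level of 5.41.

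Rnf2 (ENSMUSG00000026484.13, chr1:151458004-151500955, minus strand) is the main ubiquitin ligase of PRC1 in these cells. Rnf2 had a relative level of 2.64, 2.63 and 2.59 in the control libraries. BMH-21 gave 2.61, 2.59 and 2.58 at 2 h, 2.31, 2.39 and 2.34 at 4 h, and 1.99, 1.97 and 1.97 at 8 h. CX-5461 libraries had 2.57, 2.51 and 2.63 at 2 h, 2.22, 2.32 and 2.29 at 4 h, and 2.23, 2.29 and 2.21 at 8 h. The 2 h libraries overlapped the control libraries, and the later ones did not. Rnf2 fell by 0.27 (limma adjusted p = 4.4e-07) and 0.64 (adjusted p = 5.9e-14) at 4 and 8 h of BMH-21, and by 0.34 (adjusted p = 1.3e-08) and 0.37 (adjusted p = 3.4e-09) at 4 and 8 h of CX-5461. The deposited scale gave -0.42 at 4 h of BMH-21, and the value at 8 h of CX-5461 was -0.16 there and did not pass the test (adjusted p = 0.22). Exons of Rnf2 share 158 bases with Trmt1l on the opposite strand, whose median deposited log2 level was 5.14.

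Ring1 (ENSMUSG00000024325.8, chr17:34020792-34024680, minus strand), the paralogous ligase, had 316 to 726 reads per library, the fewest of the 10 genes. Relative levels of Ring1 were -1.43, -1.33 and -1.06 in the control libraries. In the BMH-21 libraries Ring1 was at -0.89, -1.20 and -1.0 at 2 h, -1.70, -1.32 and -1.43 at 4 h, and -1.21, -1.01 and -1.02 at 8 h. Under CX-5461 the levels were -1.02, -1.22 and -1.27 at 2 h, -1.35, -1.35 and -1.23 at 4 h, and -1.17, -1.13 and -1.25 at 8 h. Every treated group overlapped the control libraries. BMH-21 gave 0.24, -0.21 and 0.19 at 2, 4 and 8 h, and CX-5461 gave 0.11, -0.04 and 0.09, with limma adjusted p-values from 0.066 to 0.76. The 95% interval of the change at 8 h was -0.02 to 0.40 (BMH-21) and -0.12 to 0.30 (CX-5461), so both intervals included 0. The calls changed with single libraries: without control replicate 3 the change was 0.35 at 2 h (adjusted p = 0.014) and 0.30 at 8 h (adjusted p = 0.013) of BMH-21, without BMH-21 2 h replicate 2 it was 0.33 at 2 h, and without BMH-21 8 h replicate 1 it was 0.26 at 8 h. At 4 h of BMH-21 it was -0.30 without replicate 2 of that group and -0.29 without control replicate 1, both past the test. At 4 h of CX-5461 it was 0.07 without control replicate 3. The scaling changed the calls too: at 8 h of BMH-21 the change was -0.02 on the deposited scale and 0.34, past the test, with median-ratio factors, at 8 h of CX-5461 it was 0.30 on the deposited scale (adjusted p = 0.032), and at 4 h of BMH-21 it was -0.36 there, past the test.

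The log2 ratio of Ring1 to Rnf2 was -3.89 ± 0.22 (SD, n = 3) in control, -3.62 ± 0.15, -3.83 ± 0.16 and -3.06 ± 0.12 at 2, 4 and 8 h of BMH-21, and -3.74 ± 0.15, -3.59 ± 0.07 and -3.43 ± 0.03 at 2, 4 and 8 h of CX-5461. After 8 h it stood at 1.78 times control with BMH-21 and 1.38 times control with CX-5461, with all 3 treated libraries above all 3 control libraries in both. The 7 groups differed (F = 12.2, permutation test, p = 1.4e-04, and 1.4e-04 adjusted over the 2 ratios). Against control the exact permutation p was 0.1, the smallest possible, at 8 h of either inhibitor, and 0.2 to 0.8 in the other 4 groups.

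**Figure D3:**
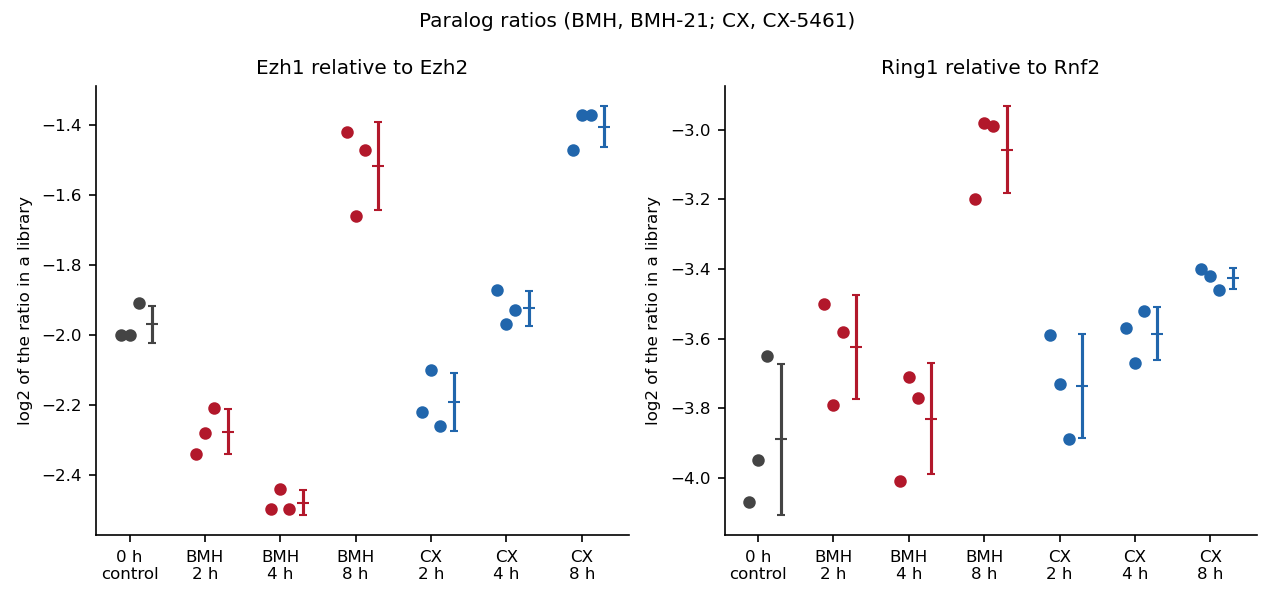
Log2 ratio of Ezh1 to Ezh2 and of Ring1 to Rnf2 (vertical axes, different ranges) in each of the 21 libraries, by group. Points are libraries, and the bars beside them give the mean and SD of 3. Both ratios are highest at 8 h, with means of -1.52 and -1.41 for Ezh1 to Ezh2 against -1.97 in control.

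Pcgf6 (ENSMUSG00000025050.8, chr19:47033617-47050906, minus strand) encodes a subunit of a variant PRC1 that also holds the DNA-binding proteins Mga and E2f6. Pcgf6 stood at 2.28, 2.37 and 2.24 in the control libraries. Pcgf6 with BMH-21 was at 2.25, 2.15 and 2.14 at 2 h, 1.53, 1.57 and 1.48 at 4 h, and 1.13, 1.15 and 0.97 at 8 h. CX-5461 gave Pcgf6 levels of 2.22, 2.19 and 2.21 at 2 h, 1.52, 1.59 and 1.57 at 4 h, and 1.80, 1.72 and 1.71 at 8 h. The 2 inhibitors overlapped at 4 h and were apart at 8 h. Pcgf6 fell by 0.77 (limma adjusted p = 4.4e-13) and 1.21 (adjusted p = 3.6e-17) at 4 and 8 h of BMH-21, and by 0.74 (adjusted p = 1.2e-12) and 0.56 (adjusted p = 2.8e-10) at 4 and 8 h of CX-5461. The changes at 2 h, -0.12 with BMH-21 (adjusted p = 0.053) and -0.09 with CX-5461 (adjusted p = 0.16), did not pass. Without control replicate 3 or BMH-21 2 h replicate 1 the first of these was -0.15 and passed. The change at 8 h of CX-5461 was -0.34 on the deposited scale.

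Kdm2b (ENSMUSG00000029475.17, chr5:122870665-122989823, minus strand), the subunit that ties a variant PRC1 to CpG islands, had the narrowest range among the genes that fell. Kdm2b had relative levels of 2.84 to 2.89 in control, 2.59 to 2.69, 2.33 to 2.40 and 2.46 to 2.66 at 2, 4 and 8 h of BMH-21, and 2.73 to 2.79, 2.71 to 2.76 and 2.72 to 2.74 at 2, 4 and 8 h of CX-5461. All treated libraries lay below the control libraries. With BMH-21 Kdm2b fell by 0.20 (limma adjusted p = 4.4e-04), 0.48 (adjusted p = 3.3e-10) and 0.29 (adjusted p = 1.0e-06). With CX-5461 it fell by 0.12 (adjusted p = 0.010) and 0.13 (adjusted p = 0.0076) at 4 and 8 h, and the change of -0.10 at 2 h did not pass (adjusted p = 0.067). These CX-5461 calls were lost with median-ratio factors, where both changes were -0.03, and the change at 8 h was 0.09 on the deposited scale. At 2 h of BMH-21 the change was -0.28 on the deposited scale and did not pass, and at 8 h of BMH-21 it was -0.50 there and -0.14 with median-ratio factors. Exons of Kdm2b share 627 bases with Rnf34, with a median deposited log2 level of 5.75, and 199 bases with A930024E05Rik, both on the opposite strand. They also share 124 bases with Gm44574 on the same strand, a gene that was not analysed here.

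A direct contrast of the inhibitors at a given time leaves the shared control out. At 2 h Eed and Mtf2 were higher with BMH-21, by 0.18 (limma adjusted p = 5.4e-04) and 0.21 (adjusted p = 7.2e-04), and 0 of the 10 genes were called lower, beside 7.83% of all tested genes called higher and 7.58% lower. The counts at 2 h depended on single settings: Kdm2b passed as lower (-0.13) with median-ratio factors (adjusted p = 0.04) and with voom weights (adjusted p = 0.043), and Ezh2 passed as higher (0.14, adjusted p = 0.02) without CX-5461 2 h replicate 3. At 4 h 4 of the 10 were higher with BMH-21 and 3 lower, beside 27.4% and 18.5%. The genes higher with BMH-21 were Ezh2 (0.38, adjusted p = 4.6e-08), Mtf2 (0.37), Eed (0.29) and Jarid2 (0.23), which had fallen further with CX-5461. Those lower with BMH-21 were Kdm2b (-0.36, adjusted p = 4.2e-07), Suz12 (-0.34) and Ezh1 (-0.18), which had fallen further with BMH-21. Without centring 0 of the 10 passed at 2 h, beside 2.47% of all tested genes called higher and 1.52% lower, and at 4 h the differences of Jarid2 (0.24) and Ezh1 (-0.17) did not pass.

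At 8 h 0 of the 10 genes were higher with BMH-21 than with CX-5461 and 9 were lower, beside 31.1% of all tested genes called higher and 40.6% lower. The largest differences were those of Jarid2 (-0.90, SE 0.05, limma adjusted p = 2.6e-14), Suz12 (-0.74, adjusted p = 6.0e-13) and Pcgf6 (-0.66, adjusted p = 1.6e-11). Ezh1 (-0.37), Rnf2 (-0.27), Ezh2 (-0.26), Mtf2 (-0.23), Kdm2b (-0.16) and Eed (-0.13) followed, and Ring1 differed by 0.10 (95% interval -0.11 to 0.32). In 9 of the 10 genes the BMH-21 libraries all lay below the CX-5461 libraries, as they did in 40.4% of all tested genes, and in 71.9% the groups did not overlap in either direction. The deposited scale called all 10 lower with BMH-21, Ring1 included (-0.32), beside 67.2% of all tested genes called lower and 12% higher on that scale, with differences of -1.33 for Jarid2, -1.17 for Suz12, -1.08 for Pcgf6, -0.80 for Ezh1, -0.70 for Rnf2, -0.69 for Ezh2, -0.66 for Mtf2, -0.58 for Kdm2b and -0.55 for Eed. The difference of Eed was -0.08 with median-ratio factors, and that of Kdm2b was -0.10 without BMH-21 8 h replicate 2.

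From 4 to 8 h the inhibitors parted. With BMH-21 6 of the 10 genes fell further and 3 rose, beside 42.2% of all tested genes called lower and 28.3% higher. Ezh2 fell by 0.80 (limma adjusted p = 1.6e-14), Jarid2 by 0.67 (adjusted p = 6.2e-12) and Eed by 0.60 (adjusted p = 3.6e-13), and Pcgf6, Rnf2 and Mtf2 fell by 0.44, 0.37 and 0.21. Ring1 rose by 0.40 (adjusted p = 0.0013), Kdm2b by 0.19 (adjusted p = 2.8e-04) and Ezh1 by 0.16 (adjusted p = 0.0038), and Suz12 changed by 0.02 (95% interval -0.07 to 0.11). The values of Kdm2b and Ezh1 on the deposited scale, 0.13 and 0.10, did not pass. With median-ratio factors those of Ezh1, Kdm2b and Mtf2 were 0.27, 0.30 and -0.10, and Suz12 passed with 0.13.

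With CX-5461 5 of the 10 genes rose from 4 to 8 h and 2 fell, beside 25.8% of all tested genes called higher and 32% lower. Those that rose were Jarid2 (0.45, limma adjusted p = 1.2e-08), Suz12 (0.42, adjusted p = 2.8e-08), Mtf2 (0.38, adjusted p = 3.7e-08), Ezh1 (0.35, adjusted p = 9.0e-07) and Pcgf6 (0.18, adjusted p = 0.0020). All 5 were still called below control at 8 h on the centred scale. Ezh2 and Eed fell by 0.16 (adjusted p = 7.9e-04) and 0.18 (adjusted p = 7.8e-05). By the deposited scale 8 rose and 0 fell, beside 58.8% of all tested genes called higher and 4.85% lower on that scale. Ezh2 and Eed were 0.21 and 0.19 there without passing, Rnf2, Kdm2b and Ring1 passed with 0.34, 0.37 and 0.50, and Jarid2, Suz12, Mtf2, Ezh1 and Pcgf6 were at 0.83, 0.79, 0.76, 0.73 and 0.56.

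The difference between the inhibitors in the change from 4 to 8 h was tested as an interaction, and was lower for BMH-21 in 8 of the 10 genes and higher in 1, beside 36.2% and 24% of all tested genes. It was -1.13 for Jarid2 (SE 0.06, limma adjusted p = 1.4e-12), which fell on with BMH-21 and rose with CX-5461. It was -0.64 for Ezh2 (adjusted p = 9.1e-10), -0.63 for Pcgf6 (adjusted p = 3.4e-08), -0.60 for Mtf2 (adjusted p = 7.9e-09), -0.41 for Eed, -0.40 for Suz12, -0.34 for Rnf2 and -0.19 for Ezh1 (adjusted p = 0.016). Kdm2b went the other way, at 0.20 (adjusted p = 0.0059). Ring1, at 0.28 (adjusted p = 0.1), did not pass, but did with median-ratio factors (0.38) and without BMH-21 4 h replicate 2 (0.36), and was -0.16 on the deposited scale. The value of Ezh1 was lost without BMH-21 8 h replicate 2 (-0.15, adjusted p = 0.051) and with median-ratio factors (-0.09), and that of Kdm2b was -0.24 on the deposited scale and did not pass there. On the deposited scale the values of Jarid2, Ezh2, Pcgf6, Mtf2, Eed, Suz12, Rnf2 and Ezh1 were -1.56, -1.07, -1.06, -1.03, -0.85, -0.84, -0.78 and -0.63.

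These scale differences touch all genes. Of the genes called after 8 h of CX-5461, 39.6% were higher on the centred scale, 71.1% on the deposited scale and 49.9% with median-ratio factors, and of those called between 8 and 4 h of CX-5461 the shares were 44.7%, 92.4% and 46.1%. For BMH-21 the shares were 43.7%, 32.9% and 47.0% at 4 h and 39.4%, 30.1% and 47.5% at 8 h, and for CX-5461 at 4 h they were 38.4%, 27.9% and 47.7%. At 2 h of CX-5461 they were 46.9%, 26.7% and 59.4%. Between the inhibitors they were 50.8%, 61.9% and 36.4% at 2 h, 59.7%, 52.4% and 42.2% at 4 h, and 43.4%, 15.1% and 48.6% at 8 h. From 4 to 8 h of BMH-21 they were 40.2%, 33.0% and 53.0%, and in the interaction 39.8%, 11.5% and 52.3%.

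Levels of different genes were compared per kilobase of exon, on the deposited log2 scale and with GENCODE M21 exon lengths. The length was that of all annotated exons of a gene merged, 6678 bases for Ezh2 and 4127 for Rnf2. It is not the length of the transcripts present, which was not measured, so the order of genes depends on it. In control cells Suz12 was highest (6.56 ± 0.10, SD, n = 3), followed by Jarid2 (6.36 ± 0.08), Eed (6.30 ± 0.11), Mtf2 (6.21 ± 0.14), Rnf2 (5.02 ± 0.12), Ezh2 (4.87 ± 0.14), Pcgf6 (4.42 ± 0.15), Kdm2b (3.86 ± 0.10), Ezh1 (2.74 ± 0.09) and Ring1 (1.48 ± 0.10). The control libraries of Jarid2 overlapped those of Eed, those of Eed overlapped those of Mtf2, and those of Rnf2 overlapped those of Ezh2. By this measure Suz12, Jarid2, Eed and Mtf2 were above both ligases of PRC1, while the control libraries of Ezh2 overlapped those of Rnf2. Of each paralog pair 1 member was higher by this measure, Ezh2 and Rnf2. Suz12 was above 95.8% of all tested genes with a length and Ring1 above 39.2%. After 8 h of BMH-21 Eed (5.25), Suz12 (5.23) and Mtf2 (5.15) were at the top and Jarid2 stood at 4.60, all per kilobase on the deposited scale.

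The 10 genes did not share a single course. Over the 7 group means, which share libraries and include a common control, the relative levels of Ezh2 and Eed had a Pearson r of 0.99, those of Jarid2 and Pcgf6 0.99 and those of Ezh1 and Suz12 0.97, while Ezh1 and Ezh2 had 0.44 and Ring1 had -0.10 to 0.44 with the other genes. Ezh2 and Eed were highest at 2 h of BMH-21 and lower at 8 h than at 4 h with either inhibitor, and Ezh1 and Suz12 were lowest at 4 h of BMH-21. For the 3 genes with the widest range, the tested genes with the most similar group means over these 7 groups were Rfx2 (r = 0.9987), Zdhhc15 (0.9981) and Mtdh (0.9979) for Jarid2, Armc6 (0.9990), Rpp25 (0.9987) and Pold3 (0.9986) for Pcgf6, and Lrrn4 (0.9978), Slc9b1 (0.9973) and Gjc1 (0.9971) for Suz12. They are the highest of 14666 genes over few points and are given as a description.

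Of 38 other genes of the Polycomb complexes, 8 were called higher and 10 lower at 2 h of BMH-21, beside 18.6% and 17.5% of all tested genes. At 4 h 10 were called higher and 24 lower, beside 32.2% and 41.5%, and at 8 h 5 and 26, beside 33.3% and 51.3%. With CX-5461 the counts were 5 and 9 at 2 h, beside 15.8% and 17.8%, 6 and 26 at 4 h, beside 28.5% and 45.7%, and 4 and 26 at 8 h, beside 29.3% and 44.7%. Their median change at 8 h was -0.42 with BMH-21 and -0.31 with CX-5461, beside -0.19 and -0.11 over all tested genes. By complex, 5 of 8 other PRC2 genes, 9 of 12 of canonical PRC1 and 12 of 18 of variant PRC1 were called lower at 8 h of BMH-21, beside the 51.3% of all tested genes. With median-ratio factors these counts were 5, 6 and 11, beside 6352 of 14666 tested genes. The deposited scale gave 6, 9 and 14, beside 8349 of 14666. On the deposited scale the count at 8 h of CX-5461 was 6 higher and 8 lower, beside 35.1% and 14.3% of all tested genes on that scale, and at 2 h 1 and 13, beside 7.45% and 20.5%. For BMH-21 it was 3 and 8 at 2 h, beside 8.48% and 11.2%, and 5 and 24 at 4 h, beside 22.1% and 44.9%. With median-ratio factors it was 9 higher and 5 lower at 2 h of CX-5461, beside 18.8% and 12.8%.

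Among the other PRC2 genes, the 3 Polycomb-like proteins moved in different directions. Phf1 rose by 1.23, 1.50 and 0.42 at 2, 4 and 8 h of BMH-21 and by 1.02, 1.09 and 0.34 under CX-5461 (limma adjusted p from 1.6e-15 to 1.1e-04 in these 6 comparisons). On the deposited scale its changes at 8 h were 0.21 with BMH-21, which did not pass, and 0.55 with CX-5461. Its relative level rose from -1.41 to -1.10 in control libraries to 0.15 to 0.34 at 4 h of BMH-21. Phf19, like Mtf2, fell, by 1.27 at 4 h of either inhibitor and by 0.35 at 2 h of CX-5461. Unlike that of Mtf2, most of the fall of Phf19 at 4 h was gone at 8 h. Its mean relative level was 0.32 in control, -0.95 at 4 h of either inhibitor, and -0.03 (BMH-21) and 0.06 (CX-5461) at 8 h. Epop, listed in the table as E130012A19Rik and known as a PRC2 partner that binds elongin, fell by 0.35, 1.53 and 2.74 with BMH-21, to 0.15 of control, and by 1.02 and 0.93 at 4 and 8 h of CX-5461. Lcor fell by 0.40 at 2 h of BMH-21 (adjusted p = 0.032), which did not pass when control replicate 1 or 3 or BMH-21 2 h replicate 1 or 2 was left out (-0.41 to -0.34). Aebp2 rose by 0.19 at 2 h of CX-5461 (adjusted p = 0.015), which did not pass on the deposited scale (0.04) or without control replicate 1 or CX-5461 2 h replicate 1 (0.14). At 8 h of CX-5461 Aebp2 fell by 0.35, and the value on the deposited scale, -0.13, did not pass.

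Among the PRC1 genes, Pcgf2 fell by 1.88 at 8 h of BMH-21 (limma adjusted p = 3.0e-21) and Bcor, a subunit of the Kdm2b-containing complex, by 1.53 and 1.44 at 4 h of BMH-21 and CX-5461. The mean relative level of Pcgf2 was 2.87 in control, 1.68 and 1.82 at 4 h of BMH-21 and CX-5461, and 2.18 at 8 h of CX-5461. Wdr5, a WD40 protein shared with other chromatin complexes, fell by 0.78 at 8 h of CX-5461. The polyhomeotic gene Phc2 rose by 0.98 and 1.36 at 4 and 8 h of BMH-21 and by 0.95 and 0.66 under CX-5461, after a fall of 0.27 at 2 h of BMH-21. Pcgf3 rose by 0.94 and 1.39 under BMH-21 and by 1.03 and 0.26 under CX-5461, the last of which was 0.48 on the deposited scale. Scmh1 rose by 1.13 at 8 h of BMH-21. At 2 h of CX-5461 it rose by 0.21, which did not pass on the deposited scale (0.06). The mean relative level of Scmh1 was 0.46 in control, 1.35 and 1.13 at 4 h of BMH-21 and CX-5461, and 0.51 at 8 h of CX-5461. Cbx8, a chromodomain protein that binds methylated histone H3, rose by 0.95 at 2 h of BMH-21. The mean relative levels of Cbx8 with CX-5461 were -3.78, -3.79 and -3.87 at 2, 4 and 8 h, against -3.63 in control. With BMH-21 they were -2.68, -2.81 and -3.5 at these times. Cbx6 fell by 0.37 and 0.30 at 2 h of BMH-21 and CX-5461, and Phc1, another polyhomeotic gene, fell by 0.37 at 2 h of CX-5461. Falls of Ezh1, Ezh2 and Rnf2 thus stood beside rises of some other subunits, which were named because they were the largest. Of the 38 other genes, 5 were called higher at 8 h of BMH-21, beside 33.3% of all tested genes. At 8 h of CX-5461 4 were called higher, beside 29.3%, so rises were less frequent in this list than among all tested genes.

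**Figure D4:**
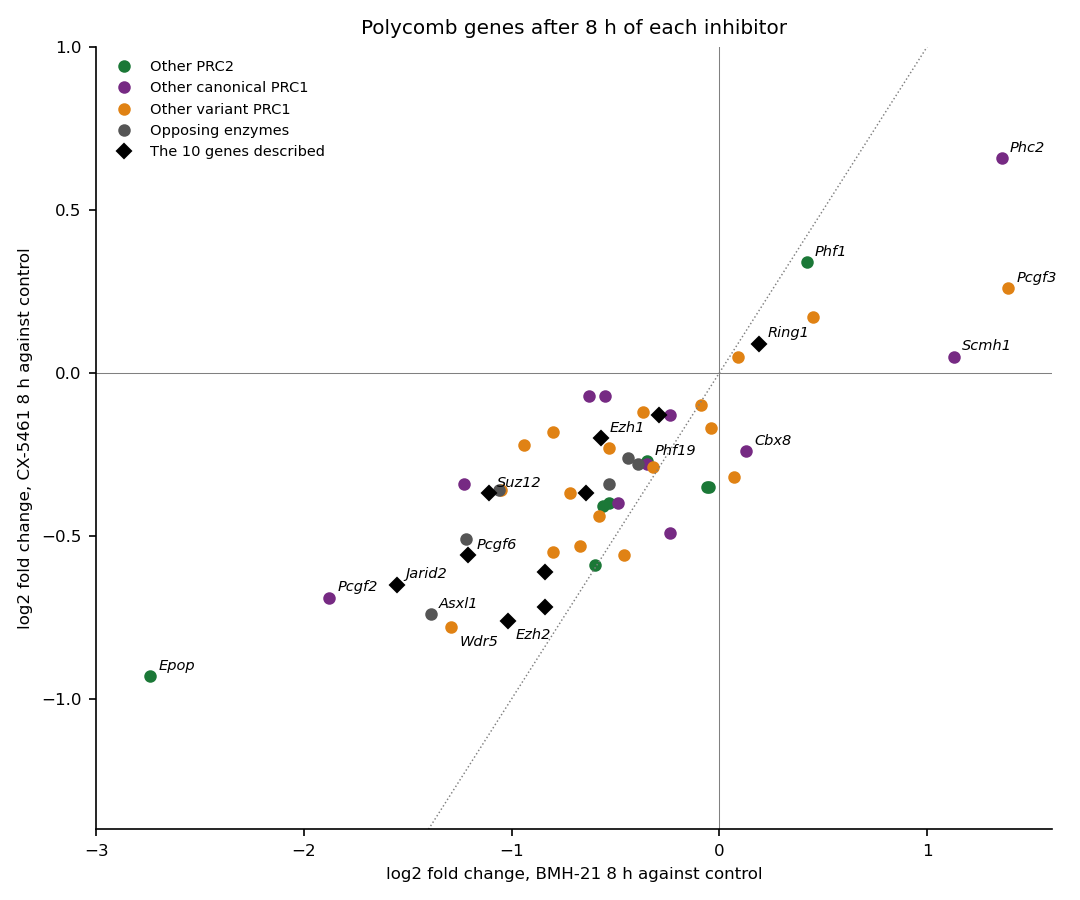
Log2 fold change at 8 h of BMH-21 (horizontal axis) and of CX-5461 (vertical axis), each against the same 3 control libraries, for the 10 genes (diamonds) and for other Polycomb and opposing genes (circles, 1 gene not shown). The dotted line marks equal values. Jarid2 lies at -1.55 and -0.65, Epop at -2.74 and -0.93, and Phc2 at 1.36 and 0.66; the axes share a control, so the alignment of points is not a result.

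Genes whose products remove the Polycomb marks were also among those called lower. Of Kdm6a, Kdm6b, Bap1, Asxl1, Asxl2 and Asxl3, the demethylases of histone H3 and subunits of the deubiquitinase of histone H2A, 6 of 6 were called lower at 8 h of BMH-21 and at 4 and 8 h of CX-5461, and 5 at 4 h of BMH-21. Of all tested genes 51.3%, 45.7%, 44.7% and 41.5% were called lower in these 4 comparisons. The median change of the 6 genes at 8 h was -0.80 with BMH-21 and -0.35 for CX-5461, beside -0.19 and -0.11 over all tested genes. Asxl1 fell by 1.39 at 8 h of BMH-21, and Asxl3 by 1.26 at 4 h of CX-5461. On the deposited scale 1 of 6 was called lower at 8 h of CX-5461, beside 14.3% of all tested genes, and with median-ratio factors 4 were, beside 35.3%.

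Of 20 genes known as Polycomb targets in embryonic stem cells, 10 passed the filter on low values and 10, most of them Hox and neural regulators, did not. Of those that passed, 3 were called higher and 5 lower at 4 h of BMH-21, beside 32.2% and 41.5% of all tested genes, and 5 and 4 at 8 h, beside 33.3% and 51.3%. With CX-5461, 3 were called higher and 5 lower at 4 h, beside 28.5% and 45.7%, and 6 and 2 at 8 h, beside 29.3% and 44.7%. Movement in both directions was thus common to these genes and to all tested genes. The filter asked for a log2 value above 0 in at least 3 libraries of any group. A gene low in control could therefore pass through treated groups in which it had risen, as Pax7, Cdx2 and Neurog1 did. The counts of higher calls in this list, and the rises of these genes given below, are not independent of that filter. Pax7 rose by 3.70 and 4.09 at 4 and 8 h of BMH-21, from 7 to 14 reads in a control library to 208 to 240 at 8 h, and by 3.78 and 2.49 at 4 and 8 h of CX-5461. Hand1 and Cdx2, both also trophoblast markers, rose at 8 h, by 1.66 (Hand1) and 1.57 (Cdx2) with BMH-21 and by 1.03 (Hand1) and 1.04 (Cdx2) with CX-5461. At 4 h Cdx2 had fallen, by 1.05 with BMH-21 and by 0.77 with CX-5461, from 25 to 44 reads in control libraries. The fall with CX-5461 did not pass with voom weights or when control replicate 1 or 2 or CX-5461 4 h replicate 2 was left out (-0.67 to -0.43). Gata6 rose by 0.58 and 0.65 at 4 h of BMH-21 and CX-5461, after a fall of 0.32 at 2 h of BMH-21 that did not pass on the deposited scale (-0.40), without the filter, with voom weights, with only the groups compared, or when control replicate 1 or 2 or BMH-21 2 h replicate 1 or 2 was left out (-0.31 to -0.25). At 8 h the mean relative level of Gata6 was -2.46 with BMH-21 and -2.82 with CX-5461, against -3.33 in control. Pax6 fell by 2.86 and 2.83 at 4 and 8 h of BMH-21 and by 2.61 and 0.67 under CX-5461, from 386 to 492 reads in control libraries. Neurog1 fell by 1.66 and 3.80 at 2 and 4 h of BMH-21, from 30 to 53 reads to 2 to 4 at 4 h, where the fitted change depends on the offset, and by 1.62 and 2.46 with CX-5461. At 8 h it was lower than control with BMH-21, by 0.81, and higher with CX-5461, by 0.80, with 74 to 97 reads. The first did not pass with median-ratio factors or when control replicate 1 or 2 or BMH-21 8 h replicate 2 was left out (-0.79 to -0.63), and the second did not when control replicate 2 or 3 or CX-5461 8 h replicate 1 or 3 was left out (0.62 to 0.83). Eomes fell by 0.98 and 0.88 at 4 and 8 h of BMH-21 and by 0.89 at 4 h of CX-5461. After 8 h of CX-5461 Eomes had risen by 0.65, from 198 to 232 reads in control libraries to 390 to 401. Gata4 fell by 0.44 at 2 h of BMH-21 and by 0.46 at 8 h of CX-5461, the last of which did not pass on the deposited scale (-0.24). Pax6 fell by 0.50 at 2 h of CX-5461 (limma adjusted p = 0.029), and did not pass when any of the 3 libraries of that group or control replicate 1 or 2 was left out (-0.51 to -0.44).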

How the data were processed

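Per the labels' protocols, RNA was selected for poly(A) and the 21 libraries were prepared with a strand-preserving kit. The authors deposited 1 table of log2 expression values whose name says voom normalization. The submitters' processing notes name Trim Galore 0.5.0, TopHat2 2.1.1, R 4.0.5, DESeq2 1.30.1, edgeR 3.32.1, limma 3.46.0 and the build mm10, with no role or order; the counter and its strand setting are not given in the sources used here. With an offset of 0.5 reads, every value gave whole reads to a relative deviation of at most 3.9e-14. The table's 21 columns were matched to samples by name.

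Values were centred on each library's median tested gene. Genes with a deposited log2 value above 0 in at least 3 libraries were tested (14666), and 6234 were set aside. One mean per group was fitted with limma 3.58.1 (R 4.3.3), with a variance trend, Benjamini-Hochberg adjustment and 12 two-sided comparisons. Fold changes understate those of low genes because of the offset. Alternatives were the deposited scale, median-ratio factors, an offset of 5 reads, other filters and variance models, a replicate block, only the groups compared, and leaving out each replicate. Paralog ratios were tested by permutation (scipy 1.17.1), and figures drawn with matplotlib 3.10.9. On simulated reads with 200 changed genes of 14666, for BMH-21 at 8 h against control, 167 were recovered and 6 calls were false. In the data 33.3% of tested genes were called higher and 51.3% lower in that comparison. The simulation changed few genes, in random directions, so it does not show how the centring performs when most genes change.

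The genes and lists were chosen with earlier results of these data known. Beside the 10 genes, the text names the 3 largest rises and falls of other Polycomb and opposing genes (2 for targets) in each comparison with control, among genes past the threshold whose groups did not overlap, and the 3 genes most like each of the 3 widest-ranging members, among genes spanning at least 50% as much. For a gene named so, values in some other comparisons are also given, and not all of its changes are reported. The values of 1 gene that this rule selects are not reported here. Markers of fibroblasts (8), extraembryonic endoderm (8), trophoblast (7, of which 6 in the table) and neural cells (6) were also examined. In control libraries their summed relative levels were 0.69 to 0.70, -0.35 to -0.23, 2.11 to 2.14 and 2.96 to 3.22. At 8 h of BMH-21 they were 1.36 to 1.50, -0.61 to -0.55, 3.31 to 3.37 and 1.87 to 2.06, and at 8 h of CX-5461 0.89 to 0.97, -0.49 to -0.37, 2.68 to 2.81 and 3.02 to 3.03. Lum was at 3 reads or fewer in every library. Of the neural markers, 1 was above the median gene in control and at 8 h of either inhibitor.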

Additional observations from a re-analysis of the deposited data

Results flagged for a closer look

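For 9 of the 10 genes the change from 4 to 8 h differed between the inhibitors by a test of that difference in limma, adjusted over 14666 genes. The difference, BMH-21 minus CX-5461, was -1.13 for Jarid2, -0.64 for Ezh2, -0.63 for Pcgf6, -0.60 for Mtf2, -0.41 for Eed, -0.40 for Suz12, -0.34 for Rnf2, -0.19 for Ezh1 and 0.20 for Kdm2b. Among all tested genes 36.2% had a lower and 24% a higher value by the same test. Over the same interval the summed relative level of the 10 embryonic stem cell markers was 7.64 to 7.75 at 4 h and 7.29 to 7.48 at 8 h of BMH-21, and 7.67 to 7.71 at 4 h and 7.90 to 7.93 at 8 h of CX-5461. Of these markers 2 were called higher and 6 lower at 8 h than at 4 h of BMH-21 (median -0.28), and 6 higher and 3 lower with CX-5461 (median 0.29). Their part in the differences was not tested.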

How the results depend on the processing

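Of the 12 counts of called members, 2 differed by over 1.5 times, both on the deposited scale, where 2 in place of 5 genes passed at 2 h of BMH-21 and 0 in place of 2 between the inhibitors at 2 h. Higher and lower calls were pooled in these counts, so a change of direction does not show in them. From 4 to 8 h of CX-5461, 5 members were called higher and 2 lower on the centred scale, and 8 and 0 on the deposited scale. Of 120 changes of single members, 93 kept direction and call on that scale, 106 with median-ratio factors or voom weights, 113 with a filter of log2 above 3, 118 with only the groups compared, and 120 each with an offset of 5 reads, no filter or no variance trend. No shared effect of the replicate number was seen (median correlation 0.0021 between same-numbered libraries, over 0.1 in 1 of 63 pairs, and 1 of 21 libraries closest to its own number). Whether same-numbered libraries were prepared as a set is not stated. The replicate block changed 1 of 120 calls, that of Pcgf6 at 2 h of BMH-21, which passed with -0.12 (limma adjusted p = 0.042). The cause of the changes of sign was not tested.

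On the deposited scale the sign changed at 8 h of CX-5461 for Ezh1 (0.02) and Kdm2b (0.09), at 8 h of BMH-21 for Ring1 (-0.02), at 2 h of CX-5461 for Ring1 (-0.04), between the inhibitors for Ring1 at 8 h (-0.32) and Pcgf6 at 2 h (0.04), from 4 to 8 h of CX-5461 for Ezh2 (0.21), Eed (0.19), Rnf2 (0.34) and Kdm2b (0.37), from 4 to 8 h of BMH-21 for Suz12 (-0.04), and in the difference of these changes for Ring1 (-0.16) and Kdm2b (-0.24). With median-ratio factors and with voom weights it changed between the inhibitors at 2 h for Ezh1 (0.00), Rnf2 (0.00) and Suz12 (-0.01), at 2 h of CX-5461 for Ezh2 (0.01), at 4 h of CX-5461 for Ring1 (0.06) and from 4 to 8 h of CX-5461 for Kdm2b (0.00). With the stricter filter it changed for the last of these (0.01) and for Ring1 at 4 h of CX-5461 (0.03). Leaving out 1 library at a time gave -0.01 to 0.06 for Ezh1 and 0.00 to 0.05 for Rnf2 between the inhibitors at 2 h, -0.06 to 0.01 for Ezh2 at 2 h of CX-5461, -0.04 to 0.07 for Suz12 from 4 to 8 h of BMH-21, -0.12 to 0.07 for Ring1 at 4 h of CX-5461 and -0.02 to 0.01 for Kdm2b from 4 to 8 h of CX-5461.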
